A study of Mus musculus with 158 samples.

Results

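Pool 6 of a pooled hairpin screen was followed from the start of the experiment into mouse lungs and into parallel culture. The pool held 52 hairpins against 25 genes, of the 1000 targeting hairpins against 285 genes in the whole screen, together with 8 control hairpins that every pool shared. It was measured in 9 of the 158 samples of the series. These were chosen by their labels: 3 libraries of the cells at day 0, 3 of cells cultured to day 28 and 3 of lung tumours at day 28, each set lettered A to C.

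The cells were PDA530 Met, a mouse line labelled as a pancreatic adenocarcinoma cell taken from a liver metastasis. They were infected with lentivirus of the pool at a multiplicity of infection of 0.3, so that most infected cells carried a single hairpin, and selected with puromycin at 3 µg/ml for 4 days. Part was pelleted as the day 0 sample, part was injected into the tail veins of 3 mice, and part was kept in culture in triplicate. The lung group is one library for each mouse, in which the DNA of all its tumours was combined. The culture group was labelled with pools 6 and 7, and its libraries held both. The labels give no genotype or strain of the mice and no further treatment. All 9 samples share the line, the infection and the selection. The 3 day 0 libraries are described as coming from a cell pellet, so their spread may be technical.

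A hairpin RNA expressed from an integrated provirus is cut by the cell into a short interfering RNA that lowers the mRNA it matches. Because the provirus stays in the DNA, the number of reads of a hairpin follows the share of cells that carry it. In the tail-vein assay, cells reach the lungs through the blood, lodge there and grow into tumours, whereas culture follows growth on plastic alone. A share can go up because cells with that hairpin became more frequent or because cells with other hairpins became fewer, and the data do not separate the one from the other.

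The 3 day 0 libraries held 7509623 to 8191371 reads and the 3 culture libraries 7621726 to 8245712. The lung libraries were uneven, with 58189 reads in lung A, 358742 in lung B and 7185302 in lung C. Pool 6 hairpins made up 70.1% to 70.6% of the reads at day 0, 69.7% in lung A and 70.5% in lung B. In lung C they made up 25.5%, because a single control hairpin, Non-targeting-shRNA-1, held 69.9% of that library. In culture, pool 6 held 33.7% to 35.6% of the reads and pool 7 held 38.9% to 41.3%. Shares below are therefore percentages of the pool 6 reads of a library. These numbered 5262866 to 5782537 at day 0, 2712392 to 2775285 in culture, and 40555, 252958 and 1834713 in lungs A, B and C. In lung A 1 read was worth 0.00247% of the pool, and a hairpin with no read could still hold up to 0.0074% (3 reads).

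**Figure D1:**
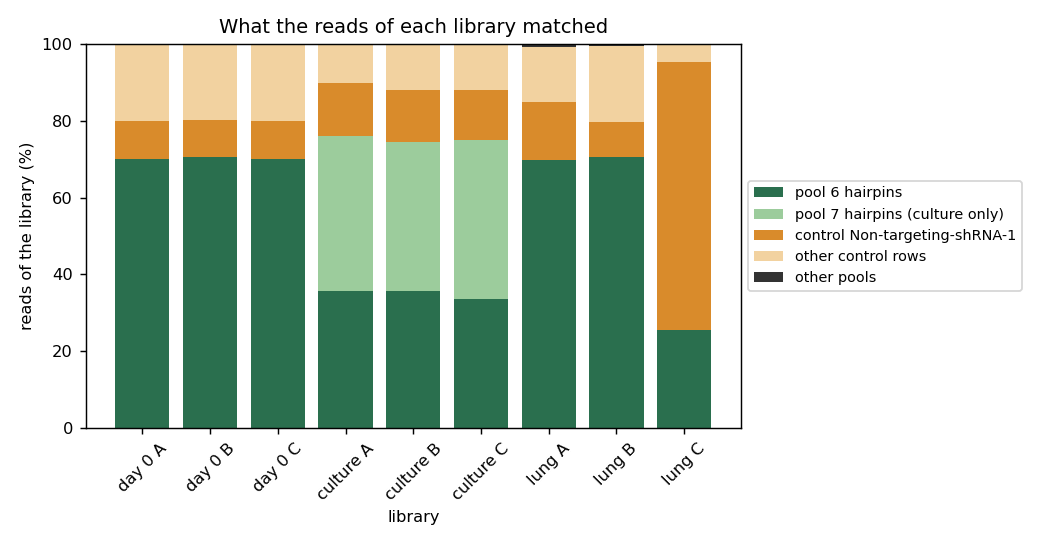
Percentage of the reads of each of the 9 libraries (bars, y axis) that matched pool 6 hairpins, pool 7 hairpins, the control Non-targeting-shRNA-1, the other control rows and hairpins of other pools. Pool 6 reads make up 69.7% of lung A and 70.5% of lung B, close to day 0, while the 1 control hairpin holds 15.3% of lung A, 9.24% of lung B and 69.9% of lung C against 9.50% to 9.96% at day 0.

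Over the 51 hairpins with enough reads to test, the log shares of the day 0 libraries correlated at 0.997 to 0.998 with each other. The 3 culture libraries correlated at 0.902 to 0.948 and the 3 lung libraries at 0.903 to 0.918; the shared starting abundances enter all these values. Lung libraries correlated with day 0 libraries at 0.737 to 0.834 and with culture at 0.740 to 0.843. These are descriptions across hairpins of 1 pool, which are not independent replicates. In every pair of libraries within an arm the reads differed by far more than counting noise (a chi-square of at least 138 per degree of freedom, a value that grows with depth and takes each PCR read as independent). The 1 hairpin not tested, TRCN0000033023 against Pcsk6 (a proprotein convertase), had 19 reads in day 0 B and none in the other 8 libraries.

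In the lungs, 23 of the 51 tested hairpins (45.1%) differed from day 0, 11 higher and 12 lower. In the whole screen 33.8% of hairpins passed the same test, 14.7% higher and 19.1% lower. Pool 6 ranked 2 of 17 pools in this percentage, whose median over the pools was 34.6%. The test was limma on log2 CPM (counts scaled to a fixed library total) with Benjamini-Hochberg adjustment over all pools and a threshold of 0.05. The CPM were scaled by the trimmed mean of M-values (TMM), which sets the bulk of the pool's hairpins to no change. With it the median difference of the pool was -0.03. On plain shares the median was -0.63 and the split was 7 higher and 20 lower. Scaling to the library total gave 0 higher and 20 lower, to the controls 0 higher and 9 lower, and the values as deposited 0 higher and 17 lower; in these the control excess of lung C enters. None of the 11 higher calls held on the library total, the controls or the deposited values. "Higher" and "lower" below are thus relative to the other hairpins of the pool.

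In culture 40 of the 51 (78.4%) differed from day 0, 19 higher and 21 lower, against 60.6% in the whole screen (28.8% higher and 31.9% lower). The share scaling gave 14 higher and 22 lower, the library total 1 and 41, the controls 2 and 37, and the deposited values 5 and 29. Of the 19 hairpins higher in culture, 16 turned negative on the library total, 14 on the controls and 9 on the deposited values, and 14 stayed called higher on plain shares. Fat1 TRCN0000094848 alone stayed called higher under all 4. The 21 lower hairpins stayed called lower under these 4 scalings. All 4 lowered the culture median of the pool, from -0.06 to -0.33, -1.33, -1.07 and -0.79 in the order given. In all but plain shares, pool 7 in the culture libraries enters. The scalings thus favour falls over rises and do not show that the falls are firmer. The higher count of calls in culture does not by itself mean a larger movement. The median absolute log2 difference was 0.763 in culture and 0.800 in the lungs, a measure that spread between libraries also raises. With all arms in 1 fit, where they share 1 estimate of spread, 23 hairpins were called in culture and 27 in the lungs. Between lungs and culture 19 hairpins (37.3%) differed, 10 higher and 9 lower in the lungs, against 24.9% of all hairpins (11.6% higher and 13.3% lower). Here the share scaling gave 8 higher and 10 lower, DESeq2's size factors 12 and 8, the library total 10 and 5, the controls 0 and 4, and the deposited values 1 and 5. Lungs and culture are each compared with the same day 0 libraries, so these differences are given side by side and not as independent evidence. The culture libraries serve pools 6 and 7 alike, and the labels do not say whether cells or DNA of these pools were mixed.

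**Figure D2:**
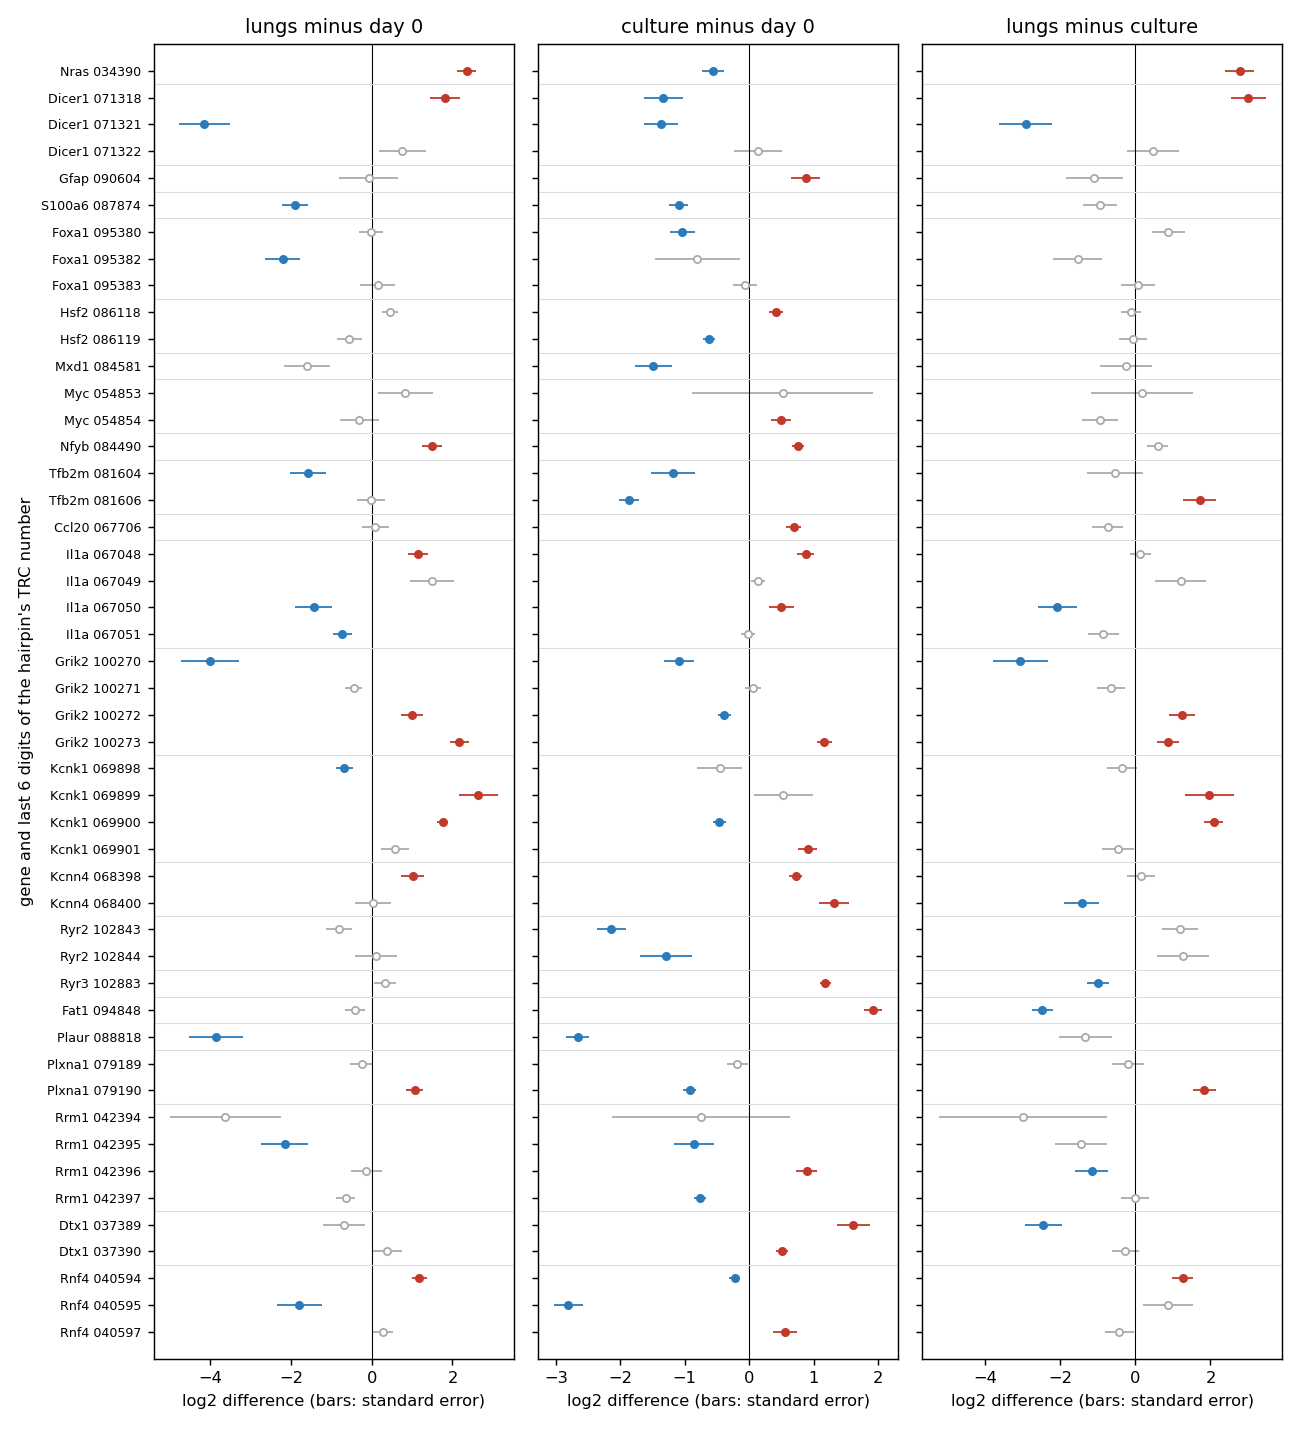
Log2 difference (x axis, points, with the standard error as bars) of 48 of the tested hairpins (rows, grouped by gene) for lungs minus day 0, culture minus day 0 and lungs minus culture, 3 libraries in each arm. Filled points passed an adjusted p of 0.05, red higher and blue lower: 22, 37 and 17 of the hairpins shown. Hairpins of 1 gene, such as Dicer1, Grik2, Kcnk1 and Il1a, lie on both sides of 0 in the lungs.

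The ion channel genes held 16 of the tested hairpins, against 6 genes. In the lungs 5 were higher than at day 0, 3 were lower and 8 did not pass, with a median log2 difference of 0.14 against -0.03 for all 51. The called share of 50% was near the 45.1% of the pool. In culture 7 were higher and 6 lower (81.2% against 78.4% called; median 0.17 against -0.06). Between lungs and culture 5 were higher and 4 lower (56.2% against 37.3% called; median -0.05 against -0.25).

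Kcnk1 encodes a potassium leak channel. Its hairpin TRCN0000069900 held 5.13%, 5.28% and 4.82% of the pool in day 0 A, B and C and 3.27%, 3.35% and 2.63% in culture. In lungs A, B and C it held 12.2%, 9.07% and 12.9%, the largest share of any hairpin in lungs A and C. The groups did not overlap: the lungs lay above and culture below day 0. The log2 difference of the lungs from day 0 was 1.76 ± 0.14 (SE, 3 against 3 libraries, adjusted p = 0.000138). That of culture was -0.47 ± 0.10 (adjusted p = 0.00148), and the lungs exceeded culture by 2.08 ± 0.26 (adjusted p = 3.7e-07). The rise from day 0 was not called on the library total (0.381), the controls (0.882) or the deposited values (0.683). The lead over culture was lost on the controls (0.200) and the deposited values (0.0979).

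A second Kcnk1 hairpin, TRCN0000069899, was rare, at 0.0661%, 0.0739% and 0.0681% at day 0 and 0.0622%, 0.140% and 0.0673% in culture. In lungs A, B and C it reached 0.269%, 0.414% and 0.207%, above every other library. It rose by 2.64 ± 0.48 against day 0 (adjusted p = 0.00357) and by 1.97 ± 0.66 against culture (adjusted p = 0.0247). The second call was lost without culture A (adjusted p = 0.105) or culture C (0.103), on plain shares (0.0554) and with reads thinned to the depth of lung A (0.0745). The other two Kcnk1 hairpins did not follow. TRCN0000069898 went from 2.65% ± 0.10 (SD, n = 3) at day 0 to 1.09% ± 0.09 in the lungs and was lower (log2 difference -0.68 ± 0.21, adjusted p = 0.0353), a call lost without any day 0 library (adjusted p 0.114 to 0.141). TRCN0000069901 held 0.695% ± 0.061 at day 0 and 0.686% ± 0.120 in the lungs (0.58 ± 0.35, adjusted p = 0.238), and was higher in culture at 1.08% ± 0.06 (0.91 ± 0.15, adjusted p = 0.000172), with the sign turned under the library total and the controls. All hairpins of Kcnk1 together made up 8.49% ± 0.21 of the pool at day 0, 5.97% ± 0.35 in culture and 13.5% ± 1.9 in the lungs.

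Grik2 encodes a subunit of kainate-type glutamate receptors. Its hairpin TRCN0000100273 held 1.57%, 1.53% and 1.38% at day 0, 2.43%, 3.33% and 2.69% in culture and 5.49%, 4.26% and 3.68% in lungs A, B and C. The 3 arms did not overlap, with culture between the others. It rose by 2.17 ± 0.23 in the lungs (adjusted p = 0.000314) and by 1.17 ± 0.11 in culture (adjusted p = 1.54e-06), where the sign turned with the library total as scale. The lungs exceeded culture by 0.86 ± 0.29 (adjusted p = 0.0245; 0.0537 with the letters as a block, 0.103 without culture A, 0.114 without culture C, 0.129 on plain shares, 0.0750 on the library total and 0.0723 with limma without trend and robust estimation). This call against culture was also lost on the controls (adjusted p = 0.725) and the deposited values (0.685). Another Grik2 hairpin, TRCN0000100270, went the opposite way. It held 0.872%, 0.797% and 0.716% at day 0, 0.273%, 0.437% and 0.251% in culture, and 0.0493%, 0.0083% and 0.0809% in lungs A, B and C. Lung A counted 20 reads of it, for a 95% Wilson interval of 0.0319% to 0.0762%, so even this shallow library placed it below every day 0 and culture library. It fell by 4.01 on the log2 scale in the lungs (SE 0.72, adjusted p = 0.00357) and was lower in lungs than in culture (-3.06 ± 0.74, adjusted p = 0.00237). In culture it was lower than at day 0 (-1.09 ± 0.23, adjusted p = 0.00133), but not with all arms in 1 fit (0.204). The Wilson intervals cover counting error only, since the reads carry no molecular identifiers.

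The remaining Grik2 hairpins split as well. TRCN0000100272 held 2.53% ± 0.07 at day 0, 1.62% ± 0.19 in culture and 3.30%, 2.26% and 4.84% in lungs A, B and C, overlapping day 0. Its log2 difference of 0.99 ± 0.27 passed the test (adjusted p = 0.0208), but not without lung A (0.0920) and not on plain shares; it changed sign when the library total, the controls or the deposited values set the scale. It was lower in culture (-0.39 ± 0.10, adjusted p = 0.00527; 0.114 with the DESeq2 test). TRCN0000100271 held 2.78% ± 0.16 at day 0 and 1.34% ± 0.20 in the lungs and did not pass (-0.45 ± 0.22, adjusted p = 0.133).

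Both hairpins against Kcnn4, a calcium-activated potassium channel, were higher in culture than at day 0. TRCN0000068398 went from 1.48% ± 0.03 to 2.03% ± 0.08 (log2 difference 0.72 ± 0.11, adjusted p = 8.51e-05) and TRCN0000068400 from 0.452% ± 0.016 to 0.984% ± 0.348 (1.32 ± 0.23, adjusted p = 0.000289). In the lungs the first held 1.86%, 1.29% and 3.10%, which overlapped day 0. It passed at 1.01 ± 0.29 (adjusted p = 0.0249) but not on plain shares, without lung A (0.0863) or without day 0 B (0.0527), and it changed sign under the library total, the controls and the deposited values. The second stood at 0.315% ± 0.104 in the lungs, lower than in culture (-1.43 ± 0.46, adjusted p = 0.0195). That call was lost without culture B, culture C or lung C (adjusted p 0.0926 to 0.139).

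The ryanodine receptors Ryr2 and Ryr3, which release calcium from the endoplasmic reticulum, moved in culture. Ryr2 hairpin TRCN0000102843 went from 2.18% ± 0.09 at day 0 to 0.424% ± 0.122 in culture (-2.14 ± 0.22, adjusted p = 1.5e-05) and TRCN0000102844 from 0.168% ± 0.029 to 0.0601% ± 0.0243 (-1.29 ± 0.40, adjusted p = 0.0134). In the lungs they held 0.847% ± 0.284 and 0.127% ± 0.058 and neither passed against day 0 (adjusted p = 0.0854 and 0.887). The Ryr3 hairpin TRCN0000102883 held 2.99%, 3.18% and 2.98% at day 0, 5.66%, 6.43% and 5.29% in culture and 2.54%, 1.66% and 3.73% in the lungs. It was higher in culture (1.18 ± 0.09, adjusted p = 1.43e-07), although the sign turned under the library total. It was lower in lungs than in culture (-0.999 ± 0.298, adjusted p = 0.0124), but not with the letters as a block (0.0679), without culture B (0.0778) or without lung A (0.0577). The call was also lost on the library total (0.336), the controls (0.299) and the deposited values (0.148). Nor did it pass with the DESeq2 test (0.0608) or with limma without trend and robust estimation (0.0885).

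Nras, a small GTPase at the head of the mitogen-activated kinase cascade, had 1 hairpin in the pool, TRCN0000034390. It held 1.03%, 0.958% and 0.860% at day 0, 0.489%, 0.579% and 0.539% in culture and 4.27%, 2.42% and 3.09% in lungs A, B and C. Every lung library lay above and every culture library below every day 0 library. It rose by 2.35 ± 0.22 in the lungs (adjusted p = 0.000244), fell by 0.56 on the log2 scale in culture (SE 0.17, adjusted p = 0.0105; 0.0677 without day 0 A, 0.0504 without day 0 B and 0.0942 with all arms in 1 fit), and was 2.77 ± 0.38 higher in lungs than in culture (adjusted p = 1.64e-06). On plain shares the lung mean was 3.43 times the day 0 mean. The rise from day 0 was not called on the library total (adjusted p = 0.0781), the controls (0.544) or the deposited values (0.307). The lead over culture was lost on the controls (0.0671).

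Dicer1 encodes the ribonuclease that cuts microRNA precursors and hairpin RNAs to their short active forms. TRCN0000071318 held 0.511%, 0.597% and 0.452% at day 0, 0.110%, 0.245% and 0.185% in culture and 1.56%, 1.42% and 0.771% in lungs A, B and C. Its shares in the lungs lay above all others and those in culture below. It rose by 1.82 ± 0.37 in the lungs (adjusted p = 0.00567) and was lower in culture (-1.33 ± 0.30, adjusted p = 0.00209). It was higher in lungs than in culture by 3.01 ± 0.47 (adjusted p = 1.76e-05). TRCN0000071321 started at a like level, 0.888%, 0.947% and 0.798%, and was likewise lower in culture, at 0.198%, 0.279% and 0.412%. In the lungs it held 0.0962%, 0.0174% and 0.0203%, from 39 reads in lung A (95% Wilson interval 0.0704% to 0.131%). It fell by 4.15 on the log2 scale against day 0 (SE 0.62, adjusted p = 0.00155), a fall not separated from that of Grik2 TRCN0000100270 by their errors, and was lower than in culture (-2.92 ± 0.70, adjusted p = 0.00237). The rarest, TRCN0000071322, held 0.120% ± 0.007 at day 0 and 0.195%, 0.0490% and 0.246% in the lungs and did not pass (0.75 ± 0.58, adjusted p = 0.345). The rise of TRCN0000071318 from day 0 was not called on the library total (0.387), the controls (0.853) or the deposited values (0.654). Its lead over culture was lost on the controls (0.104) and the deposited values (0.0517). The culture call of TRCN0000071321 was lost with all arms in 1 fit (0.0824). Relative to the other hairpins of the pool, this gene had both a rise and a fall, each seen in all 3 mice.

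**Figure D3:**
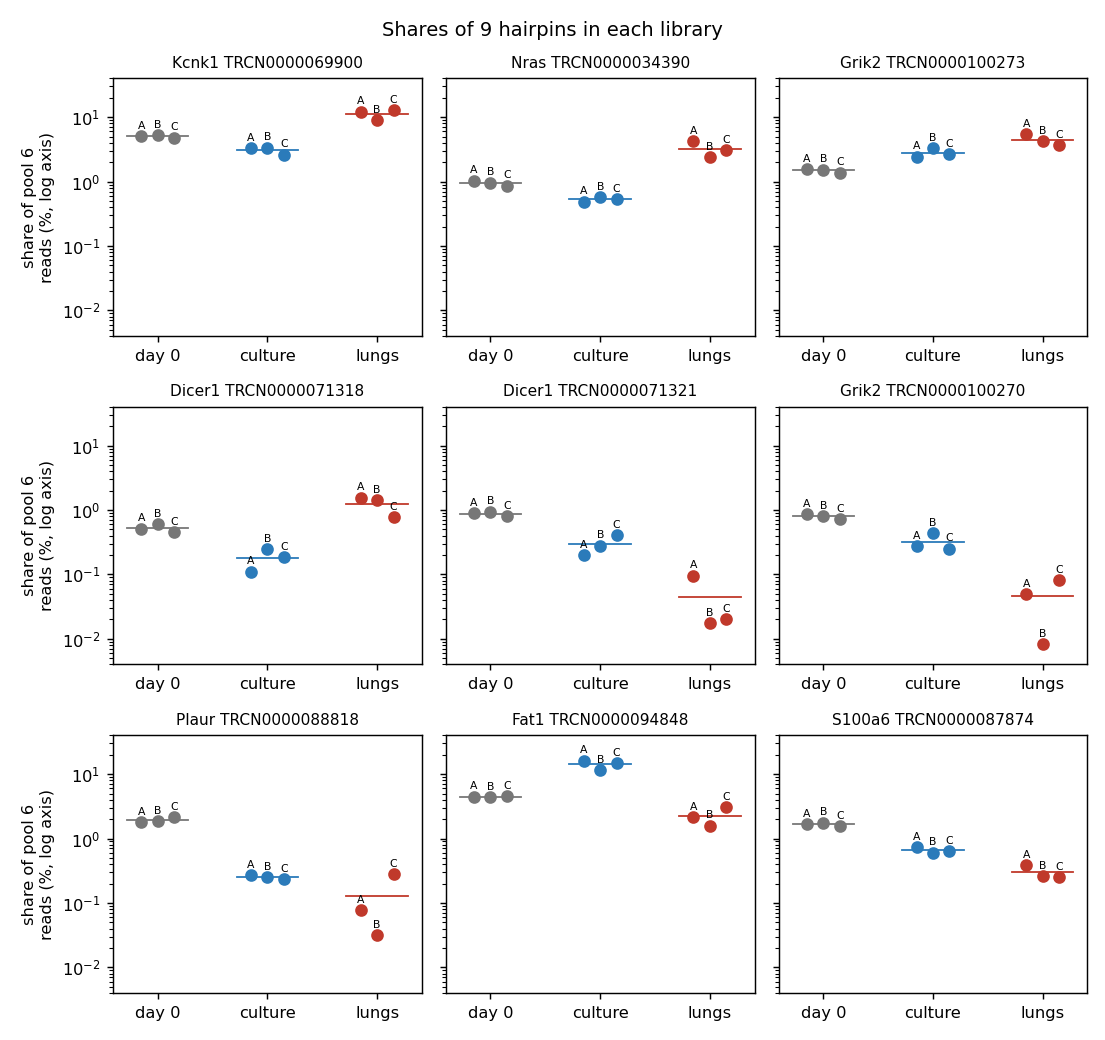
Share of the pool 6 reads (y axis, percent, log scale) of 9 hairpins in each library, by arm; letters mark the library and horizontal lines the mean of 3. In the lungs Kcnk1 TRCN0000069900, Nras, Grik2 TRCN0000100273 and Dicer1 TRCN0000071318 lie above day 0 in all 3 libraries. Dicer1 TRCN0000071321, Grik2 TRCN0000100270, Plaur and S100a6 lie below it in all 3, and Fat1 is highest in culture.

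Inflammatory signalling was represented by the cytokine Il1a and the chemokine Ccl20, with 5 hairpins. In the lungs 1 was higher and 2 lower (median 0.09, against -0.03 for all 51), in culture 3 higher and none lower (median 0.50, against -0.06; none of the 3 called higher on the library total, the controls or the deposited values), and in lungs against culture 1 was lower (median -0.74, against -0.25). Over all 51 hairpins 21.6% were higher and 23.5% lower in the lungs, 37.3% and 41.2% in culture, and 19.6% and 17.6% in lungs against culture. Il1a, an interleukin released by stressed and dying cells, held in total 13.3%, 22.6% and 14.6% of the pool in lungs A, B and C, against 10.9% ± 0.3 at day 0 and 12.3% ± 0.9 in culture. Its hairpins were uneven. TRCN0000067049 held 4.64%, 4.52% and 4.93% at day 0, but 4.50%, 18.6% and 7.74% in lungs A, B and C. The 18.6% of lung B was the largest share in any lung library, while lung A lay just below the day 0 libraries, and the difference did not pass (1.49 ± 0.54, adjusted p = 0.0742). TRCN0000067048 held 3.61%, 3.49% and 4.01% at day 0, 6.42%, 4.71% and 5.98% in culture and 7.79%, 3.37% and 5.90% in the lungs. It was higher in culture (0.88 ± 0.14, adjusted p = 0.000266). It passed in the lungs (1.15 ± 0.25, adjusted p = 0.00745) although lung B lay below the day 0 libraries. That call was lost on plain shares and without lung A (0.0749), and it changed sign under the controls and the deposited values.

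The other Il1a hairpins were lower in the lungs. TRCN0000067050 went from 0.665% ± 0.057 at day 0 to 0.264%, 0.140% and 0.112% in lungs A, B and C (-1.44 ± 0.46, adjusted p = 0.0366), and TRCN0000067051 from 1.82% ± 0.12 to 0.757%, 0.560% and 0.882% (-0.73 ± 0.24, adjusted p = 0.0413). Neither overlapped day 0, yet both calls were lost without any 1 day 0 library (adjusted p 0.0887 to 0.173), and the second also without lung B (0.0539); neither held with reads thinned to the depth of lung A. The first was lower in lungs than in culture too (-2.08 ± 0.52, adjusted p = 0.00314). In culture this hairpin, TRCN0000067050, was called higher (0.50 ± 0.19, adjusted p = 0.0399), but not on plain shares (0.300), without any 1 day 0 library (0.0579 to 0.141) or without culture C (0.0528). The Ccl20 hairpin TRCN0000067706 held 1.43% ± 0.08 at day 0, 1.92% ± 0.11 in culture (0.69 ± 0.11, adjusted p = 0.00018) and 1.04% ± 0.35 in the lungs (0.09 ± 0.33, adjusted p = 0.859).

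Among genes of the matrix, proteases and adhesion, 4 hairpins were tested. In the lungs 1 was higher and 1 lower (50% called, against 45.1% of the pool; median -0.33), in culture 1 higher and 2 lower (75.0% against 78.4%; median -0.55), and in lungs against culture 1 higher and 1 lower (50% against 37.3%; median -0.77). Plaur encodes the urokinase receptor, which localises plasminogen activation at the cell surface. Its hairpin TRCN0000088818 held 1.79%, 1.84% and 2.14% at day 0 and 0.272%, 0.251% and 0.236% in culture. In lungs A, B and C it held 0.0764%, 0.0312% and 0.277%, with lung C at the level of culture. It fell by 3.85 on the log2 scale in the lungs (SE 0.67, adjusted p = 0.00305) and was lower in culture as well (-2.66 ± 0.17, adjusted p = 2.65e-08). Lungs and culture did not differ beyond their spread (-1.33 ± 0.70, adjusted p = 0.17).

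Fat1, an atypical cadherin, had the hairpin that came to lead the cultures. TRCN0000094848 held 4.45%, 4.38% and 4.52% at day 0 and 16.2%, 11.6% and 14.7% in culture, the largest share in each culture library. In the lungs it held 2.15%, 1.59% and 3.05%, below every day 0 library. It rose by 1.92 ± 0.14 in culture (adjusted p = 1.01e-07) and was lower in lungs than in culture by -2.48 ± 0.28 (adjusted p = 5.58e-08). Lungs against day 0 did not pass (-0.42 ± 0.25, adjusted p = 0.218). The Plxna1 hairpin TRCN0000079190, against a semaphorin receptor, showed the reverse order. It held 4.26% ± 0.20 at day 0, 1.92%, 2.11% and 1.62% in culture and 5.21%, 6.53% and 5.80% in the lungs. It was lower in culture (-0.92 ± 0.10, adjusted p = 4.83e-06), higher in lungs than in culture (1.84 ± 0.30, adjusted p = 3.14e-05) and higher in lungs than at day 0 (1.06 ± 0.21, adjusted p = 0.00513). The last call did not hold on plain shares, and its sign turned under the library total, the controls and the deposited values. Its partner TRCN0000079189 held 1.41% ± 0.04 at day 0 and 0.799% ± 0.195 in the lungs (-0.25 ± 0.29, adjusted p = 0.536).

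The 6 genes of transcription had 11 tested hairpins. In the lungs 1 was higher, 2 were lower and 8 did not pass (27.3% called, against 45.1% of the pool; median -0.03). In culture 3 were higher and 5 lower (72.7% against 78.4% called; median -0.62), and in lungs against culture 1 was higher and none lower (9.09% against 37.3% called; median -0.07). The rise in the lungs was that of Nfyb TRCN0000084490, against a subunit of the CCAAT-binding factor NF-Y. It held 3.98%, 3.95% and 4.34% at day 0, 5.32%, 6.23% and 5.69% in culture and 6.90%, 9.91% and 6.25% in the lungs, so that each arm lay above the one before. It rose by 1.49 ± 0.25 in the lungs (adjusted p = 0.00232; the sign turned with the controls as scale) and by 0.75 ± 0.09 in culture (adjusted p = 1.67e-05). Lungs and culture did not differ in the test (0.60 ± 0.28, adjusted p = 0.113).

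Foxa1, a forkhead factor that opens chromatin in endodermal tissues, had 3 hairpins. TRCN0000095382 held 0.825%, 0.849% and 0.703% at day 0, 0.202%, 1.05% and 0.253% in culture and 0.148%, 0.0767% and 0.126% in the lungs. It was lower in the lungs (-2.20 ± 0.43, adjusted p = 0.00538), whereas culture B lay above day 0 and cultures A and C below it. TRCN0000095380 and TRCN0000095383 held 0.767% ± 0.254 and 0.563% ± 0.325 in the lungs against 1.15% ± 0.13 and 0.702% ± 0.112 at day 0 (adjusted p = 0.967 and 0.83). The first was lower in culture (-1.04 ± 0.20, adjusted p = 0.000546). Tfb2m, a mitochondrial transcription factor, had 2 hairpins that were both lower in culture. TRCN0000081606 went from 2.30% ± 0.21 to 0.527% ± 0.079 (-1.87 ± 0.15, adjusted p = 2.44e-07) and TRCN0000081604 from 0.223% ± 0.034 to 0.0843% ± 0.0280 (-1.18 ± 0.34, adjusted p = 0.00949). In the lungs TRCN0000081606 held 3.07%, 0.981% and 1.09%, higher than in culture (1.71 ± 0.43, adjusted p = 0.00375) and with no call against day 0 (adjusted p = 0.973). TRCN0000081604 held 0.0493%, 0.0332% and 0.0687%, lower than at day 0 (-1.59 ± 0.44, adjusted p = 0.0242). This call was lost without any day 0 library (adjusted p 0.0882 to 0.123).

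The remaining transcription genes had no call in the lungs. The hairpin TRCN0000084581 against Mxd1, a repressor that competes with Myc for their shared partner Max, went from 0.468% ± 0.032 at day 0 to 0.143% ± 0.041 in culture (-1.49 ± 0.29, adjusted p = 0.000639) and held 0.127% ± 0.108 in the lungs (-1.60 ± 0.57, adjusted p = 0.0549). For Hsf2, a heat shock factor, TRCN0000086118 was higher and TRCN0000086119 lower in culture (0.42 ± 0.11 and -0.62 ± 0.10, adjusted p = 0.00586 and 0.000103), the former not on plain shares. Of the Myc hairpins, TRCN0000054854 was higher in culture (0.49 ± 0.15, adjusted p = 0.0147; not on plain shares or without day 0 C, at 0.0655) and TRCN0000054853 was too rare to judge, with 8 reads in lung A.

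The ubiquitin ligases Rnf4 and Dtx1 had 5 hairpins, of which 1 was higher and 1 lower in the lungs (40% called, against 45.1% of the pool; median 0.27), 3 higher and 2 lower in culture (all 5, where 78.4% of the pool was called; median 0.51), and 1 higher and 1 lower in lungs against culture (40% against 37.3%; median -0.27). Rnf4 acts on proteins that carry SUMO chains. Its hairpin TRCN0000040594 held 4.54% ± 0.06 at day 0, 3.24% ± 0.15 in culture and 6.15%, 7.08% and 7.07% in the lungs. In culture it was called lower (-0.22, adjusted p = 0.0401), but not without any 1 of the 6 libraries (0.0637 to 0.113), with DESeq2's size factors (0.361), with the DESeq2 test (0.481) or with the letters as a block (0.0585); without this call the ligases have 1 lower call in culture. It was higher in lungs than at day 0 (1.18 ± 0.18, adjusted p = 0.00192; the sign turned with the controls or the deposited values as scale) and than in culture (1.26 ± 0.28, adjusted p = 0.0011). TRCN0000040595 was lower in both arms. It held 1.20% ± 0.08 at day 0, 0.129%, 0.167% and 0.135% in culture (-2.80 ± 0.22, adjusted p = 1.88e-07) and 0.126%, 0.494% and 0.187% in the lungs (-1.79 ± 0.57, adjusted p = 0.0366). The lung call was lost without any 1 day 0 library and without lung A or C (adjusted p 0.0569 to 0.141). TRCN0000040597 held 1.39% ± 0.17 at day 0 and 1.12% ± 0.27 in the lungs (adjusted p = 0.431), and was higher in culture (0.55 ± 0.19, adjusted p = 0.0266; not on plain shares, without day 0 B, at 0.0550, or without day 0 C, at 0.0738). Dtx1 is a regulator of Notch signalling. Its hairpin TRCN0000037389 went from 0.994% ± 0.116 at day 0 to 1.65%, 3.05% and 3.22% in culture (1.62 ± 0.26, adjusted p = 0.00196) and to 0.281%, 0.835% and 0.278% in the lungs, lower than in culture (-2.45 ± 0.49, adjusted p = 0.000825; 0.0661 without lung C). TRCN0000037390 was higher in culture (0.51 ± 0.09, adjusted p = 0.00044) and held 2.17% ± 1.35 in the lungs against 2.20% ± 0.08 at day 0 (adjusted p = 0.458).

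Rrm1 encodes the large subunit of ribonucleotide reductase, which makes deoxynucleotides for DNA synthesis. Of its 4 hairpins 1 was called lower in the lungs and none higher, with a median difference of -1.40 (25.0% called, against 45.1% of the pool). TRCN0000042395 held 0.370% ± 0.032 at day 0, 0.176% ± 0.056 in culture and 0.121%, 0.0206% and 0.0638% in the lungs (-2.16 ± 0.59, adjusted p = 0.0227; 0.0516 without day 0 A and 0.0628 without lung C). TRCN0000042397 held 3.40% ± 0.19, 1.67% ± 0.17 and 1.47% ± 0.41 in the same order. It was lower in culture (-0.76 ± 0.10, adjusted p = 2.76e-05) and not called in the lungs (-0.64 ± 0.24, adjusted p = 0.061). TRCN0000042396 was higher in culture, 1.60% ± 0.41 against 1.01% ± 0.03 (0.89 ± 0.16, adjusted p = 0.000373; -0.38 on the library total, -0.12 on the controls and no call on the deposited values), and at 0.645% ± 0.260 lower in lungs than in culture (-1.16 ± 0.44, adjusted p = 0.0499). This last call was lost with the letters as a block (0.0908), without any 1 culture library and without lung A or C (adjusted p 0.0655 to 0.171). The rarest, TRCN0000042394, had 5, 2 and 2 reads in lungs A, B and C and no call against day 0 (-3.63 ± 1.37, adjusted p = 0.0684). With the letters as a block it was called lower in lungs than in culture (adjusted p = 0.0304, against 0.329 without). All Rrm1 hairpins together held 4.81% ± 0.14 of the pool at day 0, 3.48% ± 0.48 in culture and 2.07%, 1.69% and 2.81% in the lungs.

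The last 2 genes were S100a6, a small calcium-binding protein, and Gfap, the intermediate filament of glia. The S100a6 hairpin TRCN0000087874 held 1.69%, 1.77% and 1.57% at day 0, 0.729%, 0.600% and 0.635% in culture and 0.390%, 0.259% and 0.254% in lungs A, B and C. The arms did not overlap. It fell by 1.90 on the log2 scale in the lungs (SE 0.33, adjusted p = 0.00279) and was lower in culture (-1.09 ± 0.15, adjusted p = 4.33e-05), with no call between lungs and culture (-0.94 ± 0.46, adjusted p = 0.134). The Gfap hairpin TRCN0000090604 held 0.0962%, 0.721% and 0.278% in the lungs, on both sides of the 0.433% ± 0.028 of day 0 (adjusted p = 0.948). It was higher in culture (0.88 ± 0.22, adjusted p = 0.00426; -0.40 on the library total, -0.14 on the controls and no call on the deposited values).

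Several hairpins were tested for 15 of the genes. In the lungs 12 of the 15 genes had hairpins of both signs. For 5 of them, Dicer1, Grik2, Il1a, Kcnk1 and Rnf4, hairpins were called in both directions. Without any 1 day 0 library this held for 2, Dicer1 and Grik2, and with the library total, the controls or the deposited values as scale for 0. In the full comparison no gene had 2 or more calls in 1 direction with none in the other. In culture 8 of 15 had mixed signs and 6 had calls in both directions. The 6 became 0 on the library total, 1 on the controls (Dtx1), 1 on the deposited values (Grik2) and 3 with all arms in 1 fit. In the main fit of culture, 3 genes had 2 or more calls higher and none lower, among them Dtx1 and Kcnn4 with every hairpin higher. Another 3 had 2 or more lower and none higher, among them Ryr2 and Tfb2m with every hairpin lower. On the library total, the controls or the deposited values Dtx1 TRCN0000037390 and Kcnn4 TRCN0000068398 turned negative in culture. Both Ryr2 and both Tfb2m hairpins stayed called lower there. The second pool of the culture libraries enters these scalings, and they lowered the median of the pool. They therefore cannot test the joint rise or the joint fall of these genes. Ryr2 TRCN0000102844 lost its call without day 0 A (adjusted p = 0.0665) or day 0 B (0.0681), and Tfb2m TRCN0000081604 without day 0 B (0.0512). With all arms in 1 fit, Dtx1 TRCN0000037390 (0.253), Kcnn4 TRCN0000068398 (0.0524) and Ryr2 TRCN0000102844 (0.0538) were not called in culture. Between lungs and culture 11 had mixed signs and 3 had calls both ways (0 on the controls or the deposited values). Kcnk1 was the only gene with 2 calls in 1 direction and none in the other, both higher in the lungs, and the loss of TRCN0000069899 on plain shares, after thinning, or without culture A or C leaves no such gene.

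Of the 25 genes, 18 had 36 more hairpins in other pools, each measured in the mice and cultures of its own pool. All 36 were tested in the lungs, where 4 were higher than day 0, 7 lower and 25 not called (median -0.28); the called share of 30.6% was near the 33.8% of the whole screen. For 8 of these genes the pool 6 calls in the lungs ran in 1 direction, and they had 13 hairpins elsewhere. Of the 13, 4 had the sign seen in pool 6 and none was called in it, while 2 were called in the opposite direction (15.4% called, against 33.8% in the whole screen). These were Kcnn4 TRCN0000349504 in pool 14 (-5.32 ± 1.47, adjusted p = 0.026) and Nfyb TRCN0000312834 in pool 16 (-3.13 ± 0.88, adjusted p = 0.0445). The Nras hairpins of pool 16, TRCN0000348697 and TRCN0000351826, differed from day 0 by -0.10 ± 0.49 and 0.69 ± 0.25 in the lungs (adjusted p = 0.899 and 0.0849). In culture both were called higher (2.77 ± 0.22 and 0.78 ± 0.20, adjusted p = 6.18e-07 and 0.00479), where the pool 6 hairpin was lower. Both Plaur hairpins of pool 15 had the sign of pool 6 without a call (-0.69 ± 0.80 and -0.24 ± 0.58).

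For culture, 15 genes had calls in 1 direction in pool 6 and 30 hairpins elsewhere. Of these 8 had the same sign and 4 were called in it, and 12 were called in the opposite direction, in all 53.3% called against 60.6% in the whole screen. S100a6, lower in pool 6, was an example: TRCN0000332631 and TRCN0000332711 of pool 16 were called higher in culture (1.86 ± 0.23 and 1.03 ± 0.20). In lungs against culture 7 such genes had 12 hairpins elsewhere, 6 with the same sign, 1 called the same way and 2 the opposite way (25.0% called, against 24.9%). Both other Fat1 hairpins, TRCN0000094846 of pool 7 and TRCN0000094847 of pool 5, were below culture in the lungs without a call (-1.22 ± 0.81 and -1.21 ± 0.76; adjusted p = 0.26 and 0.261). Pool 16 rested on 2 lung libraries, and in one of them only 0.677% of the reads belonged to that pool. Dicer1, Foxa1, Grik2, Il1a, Kcnk1, Rnf4 and Rrm1 had hairpins in pool 6 alone.

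**Figure D4:**
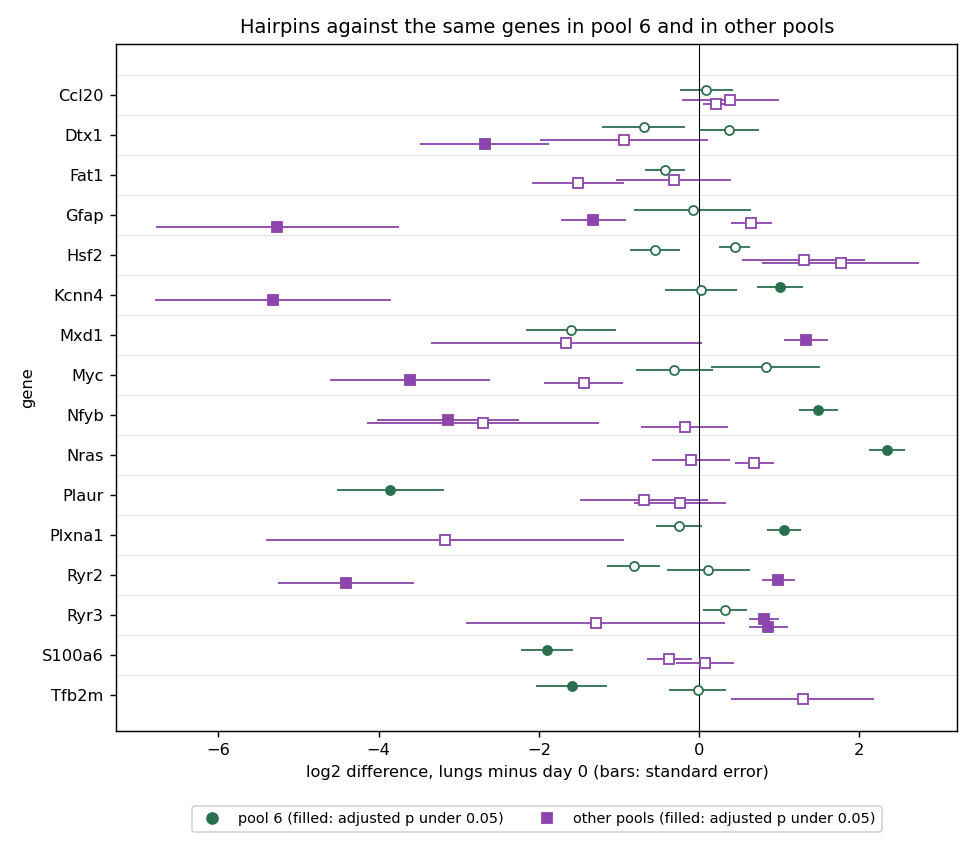
Log2 difference of lungs from day 0 (x axis, with the standard error as bars) for 16 genes (rows) with tested hairpins both in pool 6 (green circles) and in other pools (purple squares); filled symbols passed an adjusted p of 0.05. For Kcnn4 and Nfyb a filled circle on the right stands against a filled square on the left, and no gene has a filled circle and a filled square on the same side.

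The reads became concentrated on fewer hairpins. The effective number of hairpins (the exponential of the Shannon entropy of the shares, equal to 52 if all were alike) was 36.9, 36.9 and 35.6 at day 0, 26.2, 29.8 and 27.7 in culture and 26.4, 22.0 and 25.7 in lungs A, B and C. Every culture and lung library lay below every day 0 library. The log2 difference was -0.56 for lungs and -0.39 for culture against day 0, each with an exact two-sided permutation p of 0.1, the smallest that 3 against 3 libraries allow. Lungs and culture differed by -0.18 (exact permutation p = 0.2), and by -0.095 without lung B (exact p = 0.3). With the inverse Simpson index the differences were -0.85, -0.68 and -0.17 in the same order. Targeting and control hairpins together gave -1.48, -0.72 and -0.76. Thinned to the 40555 reads of lung A, the lungs gave 26.4, 22.0 and 25.7, the same as at full depth within 0.1. The 5 most frequent hairpins held 25.0% to 25.6% of the pool at day 0, 37.5% to 42.4% in culture, and 38.5%, 51.2% and 39.9% in lungs A, B and C. In all 3 lungs Kcnk1 TRCN0000069900, Nfyb TRCN0000084490 and Rnf4 TRCN0000040594 were among them.

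The control hairpins moved as well, and were left out of the tests. As a percentage of the targeting reads, the 8 controls together stood at 42.0% ± 0.6 at day 0, 32.9% ± 1.4 in culture (of pools 6 and 7) and 42.5%, 41.2% and 291% in lungs A, B and C. Non-targeting-shRNA-1, which matches no mouse gene, stood at 13.9% ± 0.4 at day 0, 18.0% ± 0.5 in culture and 21.9%, 13.1% and 274% in the lungs. The excess of lung C lay in this 1 hairpin. Non-targeting-shRNA-2 went the other way, from 3.37% ± 0.09 to 0.458% ± 0.035 in culture and 0.286%, 0.0459% and 0.0616% in the lungs, so the non-targeting hairpins did not mark a common level. The hairpin against Cdkn1b, a cyclin-dependent kinase inhibitor, stood at 5.00% ± 0.18 at day 0 and at 16.1%, 23.9% and 11.8% in the lungs, above every day 0 library. In culture it was at 7.46% ± 0.90, where the day 0 level was 5.00% in pool 6 and 7.30% in pool 7. The MUC1 hairpin went from 6.05% ± 0.17 to 0.585% ± 0.074 in culture and 1.08%, 1.77% and 2.03% in the lungs, and the PIK3CA hairpin from 1.53% ± 0.11 to 0.608% ± 0.044 and to 0.0469%, 0.287% and 0.603%. The GFP hairpin stood at 1.80% ± 0.07 at day 0 and 1.23% ± 0.31 in the lungs, and at 2.27%, 3.13% and 2.82% in culture, which overlapped the 2.00% to 2.54% of pool 7 at day 0. With 3 libraries in each arm, no exact permutation test of a single control could give a p below 0.1.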

How the data were processed

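Per the labels, hairpins were amplified by PCR from genomic DNA and sequenced. The submitters' processing notes name BWA 0.5.9; the build and the counting settings were not stated there or in the labels. The deposited values are a normalised signal per hairpin. Dividing by the smallest value of its library gave whole numbers for 100% of 27241 values (tolerance 0.01), which were taken as reads. Of 158 samples, 148 held values and 10 (pools 3 and 13) were listed as missing throughout.

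Pool 6 reads were set over their own total. Hairpins with a mean of at least 10 reads were tested with limma 3.58.1 (trend, robust) on log2(CPM + 1) with TMM scaling from edgeR 4.0.16, in R 4.3.3, each pool and pair of arms separately. P-values were adjusted by the Benjamini-Hochberg method over all hairpins of all pools, at 0.05, and the fit was tested on simulated data. edgeR's quasi-likelihood test and DESeq2 1.42.0 were alternatives, with scaling, filter, pseudocount, thinning and leaving out libraries.

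Letters were checked as pairs by correlating deviations from arm means: r was 0.41, 0.14 and 0.20 between culture and lungs of 1 letter, 0.02, -0.02 and 0.40 between day 0 and lungs, and -0.09, -0.16 and 0.09 between day 0 and culture. The labels do not state a pairing; the blocked value is given for lungs against culture where it changed a call.

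Named hairpins were the called ones (up to 12 higher and 12 lower in each lung comparison, 6 and 6 in culture), the others of their genes, the 5 most frequent in each lung and the controls. Members, lists and this rule were chosen with earlier results of these data known. RefSeq accessions of 49 of 52 hairpins matched the file's symbol in the RefSeq table, and 3 did not match. 2 of the controls, 3 starred control rows and the hairpins of 1 gene, which the counts include, are not reported here. Hairpin sequences were not used here.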

Additional observations from a re-analysis of the deposited data

Results flagged for a closer look

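Reads of pools that a library was not named for made up 0.174% to 0.206% of the reads at day 0. They were above that range in 4 libraries: 0.214% in culture A, 0.247% in culture C, 0.711% in lung A and 0.446% in lung B, against 0.077% in culture B and 0.072% in lung C. In lung A these were 414 reads, 57.7% of them of pool 7. In lung B they were 1600 reads, of which 62.4% belonged to St14 TRCN0000032416 of pool 5, a hairpin also present at day 0 and in every culture. These reads stood outside the pool 6 totals, and their part in the results was not tested.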

How the results depend on the processing

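The counts of called hairpins stayed within 1.5 times the main count under most alternatives. This compares totals and not which hairpins were called or in which direction. On the library total, lungs against day 0 had 20 calls, of which 12 were among the main 23. Culture against day 0 there had 42 calls, 1 higher and 41 lower. For lungs against day 0, 23 became 9 with the control total and 45 with lung B as the only lung library, assumed to vary like the day 0 group. For culture against day 0, 40 became 23 with all arms of a pool in 1 fit. For lungs against culture, 19 became 4 when controls set the scale and 6 on the deposited values. With each library left out in turn the counts were 16 to 28, 31 to 39 and 14 to 22. The named calls that held in all of these numbered 13 of 23, 11 of 12 and 12 of 19. edgeR called 21, 39 and 19 and DESeq2 26, 37 and 22. The replicate block gave 23, 38 and 16. In lungs against day 0 it ended the calls of Il1a TRCN0000067050 and TRCN0000067051, Kcnk1 TRCN0000069898 and Tfb2m TRCN0000081604; as the letters did not deviate together there, this is not read as a weaker effect.

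The named calls changed sign with 3 scalings, in which the excess of 1 control in lung C or the pool 7 reads in culture enter. Over all 51 hairpins plain shares turned the sign of 10, 3 and 4 in the 3 comparisons, none of them a named call. With the library total, lungs against day 0 gave -0.036 for Plxna1 TRCN0000079190, -0.086 for Kcnn4 TRCN0000068398 and -0.10 for Grik2 TRCN0000100272. Culture against day 0 gave -0.089 for Ryr3 TRCN0000102883, -0.10 for Grik2 TRCN0000100273 and -0.36 for Kcnk1 TRCN0000069901. With the control total the lung values were -0.043 for Nfyb TRCN0000084490, -0.35 for Rnf4 TRCN0000040594, -0.39 for Il1a TRCN0000067048, -0.47 for Plxna1, -0.52 for Kcnn4 and -0.54 for Grik2 TRCN0000100272, and the culture value of Kcnk1 TRCN0000069901 was -0.11. With the deposited values the lung values were -0.13 for Rnf4, -0.16 for Il1a, -0.25 for Plxna1, -0.30 for Kcnn4 and -0.31 for Grik2. Depth limits what lung A can show for hairpins below 0.0074% of the pool.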
